A study of Rattus norvegicus with 6 samples.

Results

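Chromatin accessibility was compared between islets of adult rats and of pups at postnatal day 10 (P10) at 10 genes of DNA methylation and Polycomb repression. The genes were the DNA methyltransferases Dnmt1, Dnmt3a and Dnmt3b, the 5-methylcytosine oxidases Tet1, Tet2 and Tet3, and Ezh1, Ezh2, Eed and Suz12 of Polycomb repressive complex 2 (PRC2). An accessible site (ACS, a called ATAC-seq peak) was taken as theirs if the table of sites gave one of these symbols as the nearest gene, at any distance. This held for 45 of 101603 distinct ACS and for 5 of the 10 genes, out of 14776 nearest genes in the table. Dnmt3a (gene ID 444984) had 18 of these sites. Dnmt3b (444985), Ezh2 (312299) and Eed (293104) had 8 each, and Ezh1 (303547) had 3. None of the 45 sites was listed for a further gene. Dnmt1 does not appear by symbol, but 3 sites with an empty symbol carry its gene ID (84350); they are described here and not counted among the 45. Tet1, Tet2, Tet3 and Suz12 had no site by symbol or gene ID, so their accessibility was not analysed here.

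Dnmt3a and Dnmt3b place methyl groups on unmethylated DNA, Dnmt1 copies the pattern onto the new strand at replication, and the Tet enzymes oxidise the mark so that it can be removed. PRC2 adds a repressive methyl mark to histone H3 through Ezh2 or Ezh1, with Eed and Suz12 as core partners. In beta cells, Dnmt3a is known for silencing metabolic genes such as Hk1 and Ldha as the cells mature after birth, and Ezh2 for holding down the Cdkn2a locus in young, dividing cells.

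ATAC-seq reads out open chromatin as integrations of the Tn5 transposase. Dissociated, unsorted islet cells were used, 1 male Sprague-Dawley rat of about 90 days for each of 3 adult libraries (replicates 4, 5 and 6). The 3 P10 libraries (replicates 1, 2 and 3) came from pooled pups of 3 different litters, and both male and female pups were raised for the study. No treatment is listed for either group, and age, sex and single rats against pooled pups cannot be told apart. Integrations in ACS came to 11903909, 10319487 and 7916919 in Adult 4, 5 and 6 and to 21168463, 13491534 and 18108935 in P10 1, 2 and 3.

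Levels are given as CPM, the integrations in a site per 1e6 integrations of the library in ACS, with library sizes scaled by TMM (trimmed means of log ratios). Log2 fold changes are Adult over P10, so positive values mean more integrations in adults. They come from the quasi-likelihood F test of edgeR, fitted to all 101603 sites with Benjamini-Hochberg adjustment over all of them. A site was called Up or Down at a p-value under 0.05 together with an adjusted p under 0.2, and is otherwise written as not called. Sites within 1 kb of a gene start are of the TSS class, those within 10 kb PROXIMAL, and all others DISTAL. Distances are those of the table, from the first listed base of a site to the gene start. Of 9 beta cell markers, 7 had at least 1 site, with Slc2a2 as the most open gene in adults (287 CPM, 250 CPM in P10), Ins1 in P10 (286 CPM, 190.5 CPM in adults) and Mafa and G6pc2 without a site. Their 97 sites held 14 Up (14.4%, beside 12.3% of all ACS) and 13 Down (13.4%, beside 6.63%), and their summed sites came to 1155, 982 and 1052 CPM in Adult 4, 5 and 6 and to 1232, 942 and 931 CPM in P10 1, 2 and 3. Their 6 TSS sites held 0 Up and 2 Down, beside 2.73% and 7.87% of all TSS sites. These 6 sites summed to 225, 163 and 195 CPM in Adult 4, 5 and 6 and to 338.5, 208 and 226.5 CPM in P10 1, 2 and 3, with overlap between the ages and P10 1 apart from all others. By gene, the summed sites of Ins1 were called lower in adults (log2 fold change -0.585, edgeR adjusted p = 0.0141) and those of Nkx6-1 higher (0.353, edgeR adjusted p = 0.133).

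Of the 45 sites, 4 were called Down in adults (8.89%, against 6.63% of all ACS) and 2 were called Up (4.44%, against 12.3% of all ACS). The Down sites were the start of Eed, a site upstream of Eed, a site upstream of Ezh1 and a site upstream of Dnmt3a. Both Up sites belonged to Dnmt3a, on either side of its start, and both had negative log2 fold changes when libraries were scaled by total reads. Total reads are the library totals that the authors list, before reads of low mapping quality were dropped. The Ezh2, Dnmt3b and Dnmt1 sites gave no call. The median log2 fold change of the 45 sites was -0.06, beside -0.01 for all ACS. With 1 library left out it ran from -0.20 (without P10 3) to 0.03 (without P10 1), and that of all ACS from -0.03 to -0.00. In such bulk tissue, fewer cells of a type and less accessibility per cell cannot be told apart.

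The numbers of called sites depended on scaling and on single libraries. An unadjusted p under 0.05 was reached by 4 sites with a positive and 5 with a negative log2 fold change. The share of all ACS at this limit was not counted, so such numbers, here and by gene below, have no background beside them. With limma voom 2 sites were Up and 5 Down, beside 12.2% and 6.16% of all ACS. With DESeq2 there were 2 and 4, beside 11.4% and 5.73%. With an adjusted p under 0.05 in edgeR there were 0 and 1, beside 7.06% and 1.91%. Scaling by column sums alone moved the median of all ACS to -0.10 and gave 2 Up and 6 Down sites, beside 10.3% Up and 10.6% Down among all ACS. Cyclic loess scaling also gave 2 Up and 6 Down, beside 10.9% and 8.96%. Scaling by total reads moved the median of all ACS to -0.84 and that of the 45 sites to -0.93, with 0 Up and 34 Down sites, beside 1.05% Up and 60.7% Down among all ACS. Per 100 total reads, 3.05, 2.84 and 2.48 integrations fell in ACS in Adult 4, 5 and 6, and 5.77, 4.2 and 4.05 in P10 1, 2 and 3, so no adult value reached a P10 value.

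All 6 called sites lost the call in at least 1 of the 6 edgeR fits that left out a library. A further 8 sites, not called with all libraries, were called in such a fit. These 8 are named for this, so those outside the TSS class were chosen after their values were seen. The share of all ACS that lost or gained a call over the 6 fits was not counted. Such changes are therefore not shown to be particular to these genes. Without P10 2, the 45 sites held 0 Up and 1 Down, and all ACS held 7973 Up and 3285 Down in place of 12504 and 6738. Without P10 3, 0 of the 45 sites were Up and 4 Down, beside 8908 (8.77%) and 4232 (4.17%) of all ACS. Without Adult 6, 4 of the 45 sites were Up and 3 Down, beside 10.7% and 4.96% of all ACS. Without P10 1, 4 were Up and 4 Down, beside 12.8% and 6.78%. Within an age, chi-square values per degree of freedom ran from 3.35 to 7.81 for the 6 pairs of libraries, above what counting alone would give.

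By position, 36 of the 45 sites were DISTAL (80.0%, beside 79.3% of all listed entries), 5 PROXIMAL (11.1%, beside 9.85%) and 4 TSS (8.89%, beside 10.9%). Of the 4 TSS sites, 1 was called Down, that of Eed, where 7.87% of all 11055 TSS sites were Down. None was Up in edgeR, voom, DESeq2 or any scaling, and none reached an unadjusted p under 0.05 upward, where 2.73% of all TSS sites were Up in edgeR. The median log2 fold change of these 4 TSS sites was -0.39, beside -0.10 for all TSS sites. At 8 of the 45 sites all adult values lay under all P10 values, an arrangement found at 10.9% of all ACS. At 1 site all adult values lay over all P10 values, which held for 13.8% of all ACS.

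**Figure D1:**
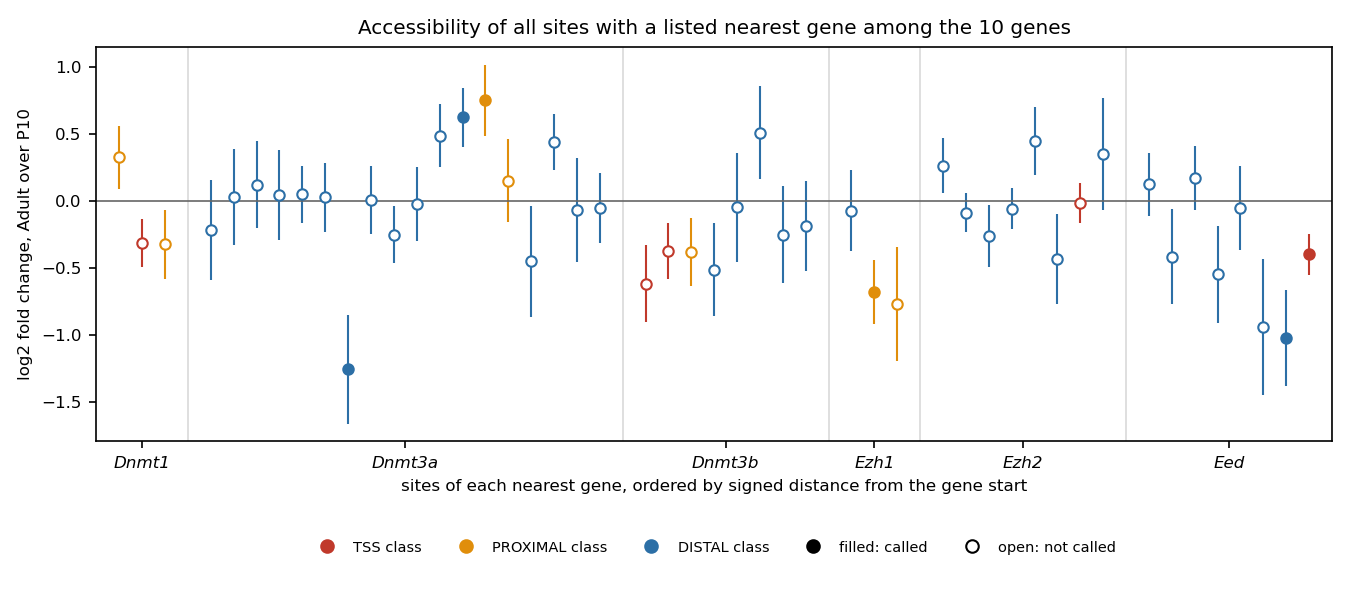
Log2 fold change of accessibility (Adult over P10, vertical axis) for the 45 sites of 5 genes and the 3 sites found by the gene ID of Dnmt1, placed within each gene from the most upstream to the most downstream site; points are edgeR estimates from 3 adult and 3 P10 libraries, bars are 1 standard error, colour gives the class and filled points are called. Values run from -1.25 at a site upstream of Dnmt3a to 0.75 at a site inside it, the latter negative with total reads, and the 8 open points of Ezh2 lie on both sides of 0.

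Dnmt3a, which methylates DNA de novo, had the most sites of the set, 12 upstream of its start and 6 inside the gene (chr6:38044960-38149613, plus strand, Rn5). None of its sites is of the TSS class; 2 are PROXIMAL and 16 DISTAL, with listed distances up to 109203 bp. Of the 18 sites, 2 were Up and 1 was Down, and at an unadjusted p under 0.05 there were 4 upward and 1 downward. Their median log2 fold change was 0.03, and it was -0.84 with total reads, -0.07 with column sums and -0.04 with cyclic loess.

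The Up site closest to the start lies inside the gene at chr6:38047115-38047484, 2155 bp past the start. It held 11.4, 9.64 and 10.2 CPM in Adult 4, 5 and 6 and 8.69, 5.49 and 4.28 CPM in P10 1, 2 and 3. Adults were higher without overlap, with P10 1 closest to the adults. The means were 10.4 ± 0.893 CPM (SD, n = 3) in adults and 6.16 ± 2.28 CPM (SD, n = 3) in P10, which gave 0.75 on the log2 scale (standard error 0.26, edgeR adjusted p = 0.0750). The call was lost without P10 2 (0.66, edgeR adjusted p = 0.275) and without P10 3 (0.53, edgeR adjusted p = 0.344), and the log2 fold change was -0.14 with total reads. Over all alternatives the adjusted p ran from 0.00971 to 0.725.

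The second Up site lies upstream at chr6:38030870-38031487, 14090 bp before the start. Its levels were 29.9, 27.9 and 18.4 CPM in Adult 4, 5 and 6 and 22.5, 13.3 and 13.7 CPM in P10 1, 2 and 3. The groups overlapped, since Adult 6 lay below P10 1. Means were 25.4 ± 6.12 CPM (SD, n = 3) and 16.5 ± 5.17 CPM (SD, n = 3), with a difference of 0.62 in log2 (standard error 0.22, edgeR adjusted p = 0.0797). Leaving out Adult 4, P10 2 or P10 3 ended the call (edgeR adjusted p = 0.270, 0.365 and 0.322), and total reads turned the log2 fold change to -0.25. The adjusted p ran from 0.00941 to 0.5 over the alternatives.

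A pair of further Dnmt3a sites had positive log2 fold changes with an unadjusted p under 0.05 and were not called. At chr6:38028413-38028802, 16547 bp upstream, the means were 15.6 ± 3.51 CPM (SD, n = 3) in adults and 11.2 ± 2.99 CPM (SD, n = 3) in P10, with a difference of 0.49 in log2 (edgeR adjusted p = 0.230). At chr6:38070801-38071417, 25841 bp inside the gene, they were 22.2 ± 4.53 CPM (SD, n = 3) and 16.4 ± 3.43 CPM (SD, n = 3), with a difference of 0.44 in log2 (edgeR adjusted p = 0.223). Libraries of both ages overlapped at each of them. Without P10 1 both were called Up (0.69 and 0.61, edgeR adjusted p = 0.0738 and 0.0757, the lowest over the alternatives, which reached 0.617 and 0.596). Without Adult 6 both were called Up as well (0.60 and 0.59), the first was 0.28 without Adult 4 and 0.29 without P10 3, and with total reads their values were -0.38 and -0.42.

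The Down site of Dnmt3a lies far upstream at chr6:37982543-37982846, 62417 bp before the start. It is a weak site, with 23, 16 and 3 raw integrations in Adult 4, 5 and 6 and 78, 46 and 59 in P10 1, 2 and 3. These came to 2.08, 1.56 and 0.387 CPM in adults and 3.63, 3.28 and 3.12 CPM in P10. All adult libraries lay below all P10 libraries, and Adult 6 was the lowest. Its log2 fold change was -1.25 (standard error 0.40, edgeR adjusted p = 0.0494). Without Adult 6 it was -0.87 and not called (edgeR adjusted p = 0.212, with a range from 0.00186 to 0.212 over the alternatives).

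The Dnmt3a site with the most counts, at chr6:38014174-38014851 and 30786 bp upstream, was not called. It held 22.7, 18.9 and 15.7 CPM in Adult 4, 5 and 6 and 29.8, 21.7 and 16.9 CPM in P10 1, 2 and 3, with overlap between the ages and P10 1 as the highest library. Its log2 fold change was -0.25 (standard error 0.21, edgeR adjusted p = 0.560), ran from -0.44 without P10 3 and -0.39 without Adult 4 to -0.13 without Adult 6 and -0.02 without P10 1, and was -1.12 and called Down with total reads (edgeR adjusted p = 0.00710). The site took 13.8% of the counts of all Dnmt3a sites, so no single site held most of the gene's signal. The other 12 uncalled sites of the gene had log2 fold changes between -0.45 and 0.15.

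**Figure D2:**
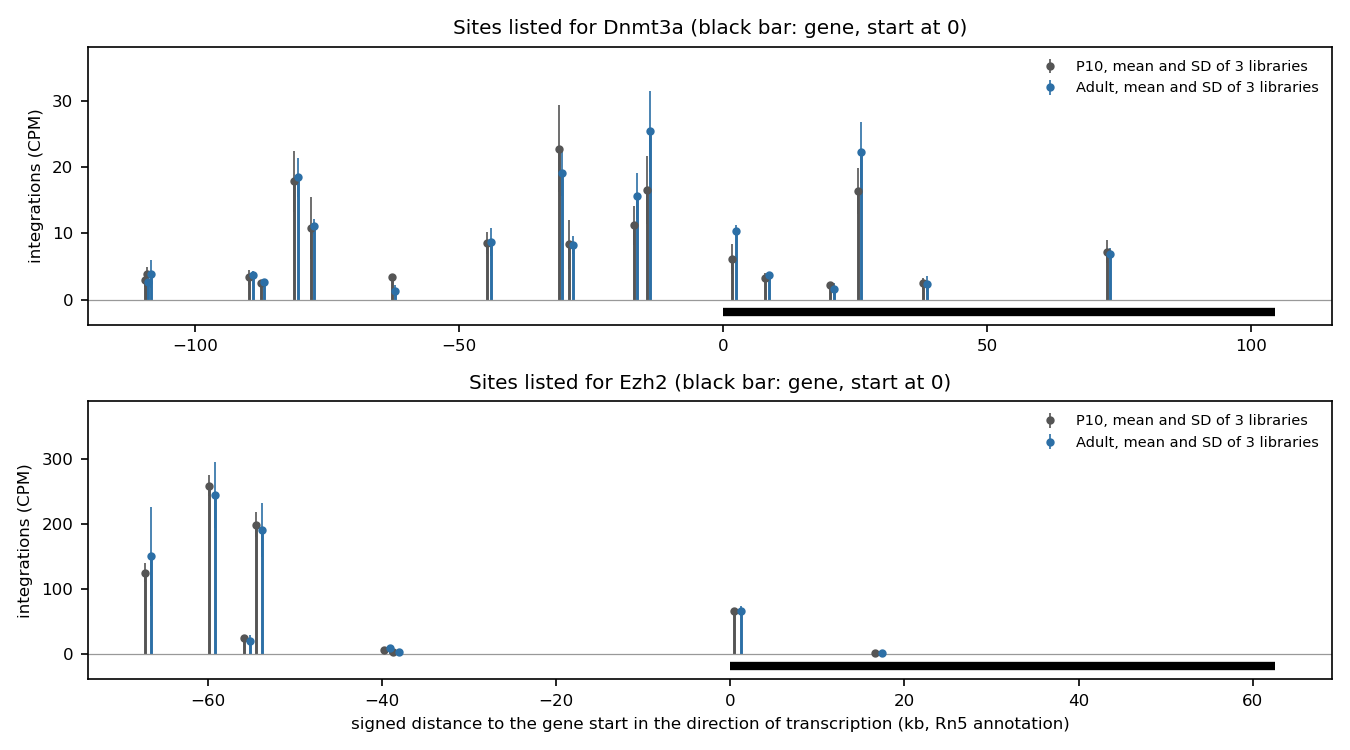
Mean accessibility in CPM (vertical axis) of each site listed for Dnmt3a (upper panel) and Ezh2 (lower panel) against its signed distance to the gene start in kb (horizontal axis, Rn5); points are means and bars SD of 3 adult and 3 P10 libraries, and the black bar is the gene. The Dnmt3a sites stay below 30 CPM on both sides of its start, whereas the 3 sites 54080, 59487 and 66887 bp upstream of Ezh2 hold 85.4% of the counts of that gene's sites.

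Dnmt3b, the other de novo methyltransferase, had 8 sites and gave 0 calls with edgeR, voom and DESeq2. At an unadjusted p under 0.05 there was 1 site, downward. RLE size factors called 1 site Down, column sums and cyclic loess called 2 Down each, and total reads called 7. Of the 8 log2 fold changes, 7 were negative, with a median of -0.31. On chromosome 3 as a whole the median was -0.17 over all ACS and -0.25 over TSS sites, and its part in these values was not tested.

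The site at the start of Dnmt3b, chr3:155510827-155511909, overlaps the start itself. It held 16.2, 18.6 and 11.7 CPM in Adult 4, 5 and 6 and 23.4, 19.3 and 17.8 CPM in P10 1, 2 and 3. Adult 5 lay above P10 3, so the groups overlapped, and Adult 6 was the lowest library. This gave a log2 fold change of -0.37 (standard error 0.21, edgeR adjusted p = 0.321), and -0.21 without Adult 6. It was called Down without Adult 5 (-0.52, edgeR adjusted p = 0.169) and with column sums, cyclic loess and total reads, within a range of 0.00424 to 0.694 over the alternatives.

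A second TSS-class site of Dnmt3b, chr3:155510489-155510776, begins 339 bp upstream and was weaker. Its levels were 3.98, 3.70 and 3.74 CPM in Adult 4, 5 and 6 and 6.46, 6.78 and 4.33 CPM in P10 1, 2 and 3. Adults were lower without overlap here, with P10 3 close to them. At -0.62 on the log2 scale (standard error 0.29), the site just missed the limit (edgeR adjusted p = 0.210). It was called Down without P10 3 (-0.81, edgeR adjusted p = 0.147, with a range from 0.00304 to 0.501 over the alternatives) and with RLE size factors, column sums, cyclic loess and total reads.

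Dnmt1, the maintenance methyltransferase, had 1 TSS and 2 PROXIMAL sites, and 0 of the 3 were called with edgeR, voom or DESeq2, or reached an unadjusted p under 0.05. Column sums and cyclic loess called 1 Down each, and total reads 2. The TSS site, chr8:22024090-22024962, overlaps the start. It held 23.8, 25.7 and 19.7 CPM in Adult 4, 5 and 6 and 29.1, 30.3 and 26.7 CPM in P10 1, 2 and 3. No adult library reached the lowest P10 library, although Adult 5 came close to P10 3. Its log2 fold change was -0.31 (standard error 0.18, edgeR adjusted p = 0.335). The PROXIMAL sites, 7330 bp upstream and 9650 bp inside the gene, had log2 fold changes of 0.33 and -0.32, both with overlap between the ages. They were 0.14 and -0.57 without P10 3, and the latter was -0.14 without P10 1. Without P10 1 the upstream one was called Up (0.57, edgeR adjusted p = 0.154, in a range up to 0.844), and with total reads its value was -0.54. These PROXIMAL sites were chosen after their values were seen.

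Eed, which binds the methylated histone tail and is needed for PRC2 activity, had 1 TSS site and 7 DISTAL sites upstream, and 2 of the 8 were called Down. The TSS site, chr1:160519945-160521433, overlaps the start and held 64.9% of the counts of all Eed sites. Its levels were 50.3, 41.4 and 50.5 CPM in Adult 4, 5 and 6 and 58.1, 66.5 and 62.9 CPM in P10 1, 2 and 3. The groups did not overlap, with Adult 5 the lowest and P10 2 the highest library. Means were 47.4 ± 5.22 CPM (SD, n = 3) in adults and 62.5 ± 4.26 CPM (SD, n = 3) in P10, so accessibility fell by 0.40 on the log2 scale (standard error 0.16, edgeR adjusted p = 0.118).

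The call at the start of Eed was lost without Adult 5 (-0.31, edgeR adjusted p = 0.213), without P10 2 (-0.37, edgeR adjusted p = 0.349) and without P10 3 (-0.41, edgeR adjusted p = 0.228). The adjusted p ran from 0.00120 to 0.349 over the alternatives, and the log2 fold change was negative in each. Only 8.86% of all TSS sites had a higher mean count. On chromosome 1, which carries Eed, the median log2 fold change was -0.22 over 1394 TSS sites, and 14.3% of them were called Down. The part of this shift in the Eed value was not tested.

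The second Down site of Eed, chr1:160538313-160538662, lies 17479 bp upstream of the start. It held 22, 14 and 11 raw integrations in Adult 4, 5 and 6 and 67, 53 and 55 in P10 1, 2 and 3. In CPM these were 1.99, 1.36 and 1.42 in adults and 3.11, 3.78 and 2.91 in P10, again with no overlap and the adults lower. Accessibility fell by 1.02 on the log2 scale (standard error 0.36, edgeR adjusted p = 0.0756). Without P10 2 the call was lost (-0.93, edgeR adjusted p = 0.257, the highest value over the alternatives, which began at 0.00167). The other 6 sites, all DISTAL, were not called and had log2 fold changes from -0.94 to 0.17. Of these, the site 32948 bp upstream held 1, 14 and 17 raw integrations in Adult 4, 5 and 6 and 50, 25 and 47 in P10 1, 2 and 3. Its log2 fold change of -0.94 shrank to -0.34 without Adult 4 (edgeR adjusted p = 0.730). It was Down without Adult 6 (-1.62, edgeR adjusted p = 0.0822, in a range from 0.00764 to 0.730), with voom (-1.68) and with total reads (-1.79).

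Ezh1, the catalytic subunit that predominates in cells that do not divide, had 3 sites and none of the TSS class. The site with the most counts, chr10:88937897-88938612, is PROXIMAL and lies 9062 bp upstream of the start. It held 8.86, 7.89 and 5.93 CPM in Adult 4, 5 and 6 and 13.2, 12.98 and 10.4 CPM in P10 1, 2 and 3. All adults lay below all P10 libraries, and Adult 6 was the lowest. The means were 7.56 ± 1.49 CPM (SD, n = 3) and 12.2 ± 1.53 CPM (SD, n = 3), and the site was called Down with a log2 value of -0.68 (standard error 0.24, edgeR adjusted p = 0.0740). The call was lost without Adult 6 (-0.54, edgeR adjusted p = 0.256) and without P10 2 (-0.65, edgeR adjusted p = 0.219), in a range of 0.00180 to 0.256 over the alternatives.

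The other Ezh1 sites were called Down only with total reads and were chosen for mention after their values were seen. A PROXIMAL site inside the gene, chr10:88922508-88922738, had the fewest counts of the whole set, a mean of 20.5 per library, and a difference of -0.76 in log2 (standard error 0.42). For a DISTAL site 16398 bp upstream the value was -0.07 (standard error 0.30), and it was 0.37 without P10 1 and 0.10 without Adult 6. Chromosome 10 as a whole had a median log2 fold change of -0.18 over all its ACS and of -0.30 over its TSS sites. How far this shift enters the Ezh1 values was not tested.

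Ezh2, the catalytic subunit of PRC2 in dividing cells, had the most open sites of the set and none that was called. With 8 sites tested, edgeR, voom, DESeq2, RLE size factors, column sums and cyclic loess each gave 0 calls, and 0 sites reached an unadjusted p under 0.05. Total reads called 5 of them Down. The site over the Ezh2 start, chr4:142017622-142018911, held 67.3, 57.4 and 71.9 CPM in Adult 4, 5 and 6 and 64.1, 69.8 and 64.5 CPM in P10 1, 2 and 3. The ages overlapped fully, and the lowest and the highest library were both adults. The log2 fold change was -0.01 (standard error 0.15, edgeR adjusted p = 0.976), with a 95% interval from -0.31 to 0.28. Its sign turned without Adult 5 (0.07) and without P10 2 (0.01).

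The strongest sites of the whole set lay upstream of Ezh2. At chr4:142077958-142079025, 59487 bp before the start, the levels were 186, 282 and 263 CPM in Adult 4, 5 and 6 and 277, 253 and 247 CPM in P10 1, 2 and 3. Adult 4 was low and Adult 5 high, and the P10 libraries lay between them. The log2 fold change was -0.09 (standard error 0.15, edgeR adjusted p = 0.807), with a 95% interval from -0.37 to 0.20, and it was 0.07 without Adult 4 and -0.21 without Adult 5. Of all DISTAL sites, 0.0571% had a higher mean count. In the current rat annotation (GRCr8) the protein-coding neighbours of Ezh2 are Cul1 and Pdia4, and whether these sites act on Ezh2 was not tested.

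With its neighbours at 54080 and 66887 bp upstream, this site held 85.4% of the counts of all Ezh2 sites. Summed, the 3 sites came to 432, 745 and 578 CPM in Adult 4, 5 and 6 and to 624, 588 and 537 CPM in P10 1, 2 and 3. Adult 4 was the lowest library and Adult 5 the highest, so the adult spread (585 ± 157 CPM, SD, n = 3) was wider than that of P10 (583 ± 43.5 CPM, SD, n = 3). The spread was widest at the farthest site, chr4:142085358-142087127, with 101, 238 and 111 CPM in Adult 4, 5 and 6 against 128, 138 and 109 CPM in P10 1, 2 and 3. There only Adult 5 stood above the P10 libraries, and the log2 fold change of 0.26 (standard error 0.21, edgeR adjusted p = 0.522) turned to -0.24 without that library and to -0.56 with total reads. Without Adult 4 the site was called Up (0.48, edgeR adjusted p = 0.155, in a range from 0.0898 to 0.806). The remaining 5 Ezh2 sites summed to 98.5 ± 6.13 CPM (SD, n = 3) in adults and 101 ± 6.78 CPM (SD, n = 3) in P10. Of these 5, the site 39361 bp upstream was called Up without Adult 5 (0.59, edgeR adjusted p = 0.197, in a range up to 0.557) and had -0.37 with total reads. The site 55499 bp upstream was called Down without Adult 5 (-0.63, edgeR adjusted p = 0.0977, in a range from 0.00745 to 0.978) and with total reads (-1.10), and had 0.02 without Adult 4.

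**Figure D3:**
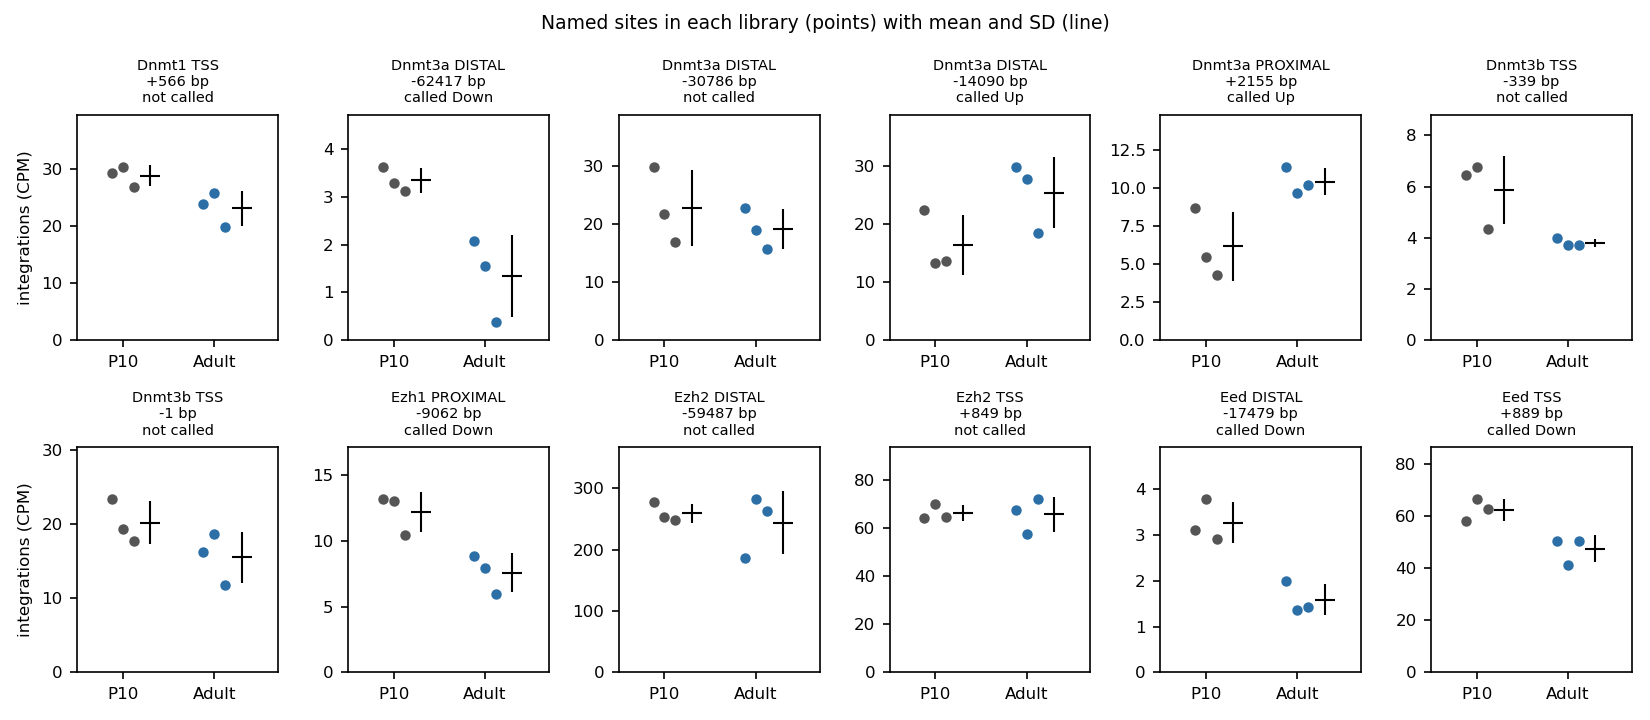
Accessibility in CPM (vertical axis, separate scale in each panel from 0) of the 12 named sites in each of 3 P10 (grey) and 3 adult (blue) libraries, with the mean and SD as a line; panel titles give the gene, class, distance to the gene start and call. The groups separate at the start of Eed (adults 41.4 to 50.5, P10 58.1 to 66.5 CPM) and overlap at the start of Ezh2 (57.4 to 71.9 and 64.1 to 69.8 CPM).

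Counts were also summed over all sites listed for a gene and tested across all 14776 genes with the same edgeR test and limits. Of the 6 genes with sites, Eed was called lower in adults, where 4.64% of all genes were, and none was called higher, where 8.71% of all genes were. With total reads the sums of all 6 genes were called lower, as were those of 12745 of all 14776 genes. The Eed sites summed to 80.1, 69.4 and 79.1 CPM in Adult 4, 5 and 6 and to 88.3, 97.6 and 96.5 CPM in P10 1, 2 and 3. The groups did not overlap, and Adult 5 was again the lowest. The log2 fold change was -0.30 (standard error 0.13, edgeR adjusted p = 0.189). It passed the limits in 1 of the 6 fits that left out a library, that without P10 1 (-0.36, edgeR adjusted p = 0.0611). In the fits without Adult 4, Adult 5, Adult 6, P10 2 or P10 3 it did not, and over all alternatives its adjusted p ran from 0.000852 to 0.467 (limma voom 0.207).

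For Ezh1 the sums were 17.1, 15.8 and 11.9 CPM in Adult 4, 5 and 6 and 24.9, 18.5 and 18.2 CPM in P10 1, 2 and 3. Adults lay below P10 without overlap, and the log2 fold change of -0.46 (standard error 0.20, edgeR adjusted p = 0.227) was not called, except without P10 3 (-0.55, edgeR adjusted p = 0.180), with DESeq2 (adjusted p = 0.183), with column sums (adjusted p = 0.111) and with total reads (-1.31, adjusted p = 0.00200). Ezh2 sums were 684 ± 158 CPM (SD, n = 3) in adults and 684 ± 45.9 CPM (SD, n = 3) in P10, and the log2 difference was -0.00 (standard error 0.16). Without Adult 4 the Ezh2 value was 0.16, without Adult 5 -0.18 and without P10 1 0.03.

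Among the methyltransferases, the summed Dnmt3a sites held 186, 173 and 144 CPM in Adult 4, 5 and 6 and 195, 135 and 119 CPM in P10 1, 2 and 3. P10 1 was the highest of the 6 libraries and the other P10 libraries were the lowest. The log2 fold change of Dnmt3a was 0.16 (edgeR adjusted p = 0.584), was 0.39 and called higher without P10 1 (edgeR adjusted p = 0.0450), was 0.01 without P10 3, and was -0.71 and called lower with total reads (edgeR adjusted p = 0.00870, in a range up to 0.977). The Dnmt3b sites summed to 39.9 ± 8.90 CPM (SD, n = 3) in adults and 49.6 ± 6.62 CPM (SD, n = 3) in P10. Their difference of -0.31 in log2 (edgeR adjusted p = 0.310) was called without Adult 5 (-0.50, edgeR adjusted p = 0.130), with column sums (adjusted p = 0.148) and with total reads (-1.16), and was -0.18 without Adult 6. For Dnmt1 the log2 fold change of the sums was -0.12 (edgeR adjusted p = 0.713), 0.00 without Adult 6 and -0.25 without P10 3.

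Divided by the length of the sites, the levels of the genes can be set beside each other. Ezh2 was the highest, with 104 ± 24.1 CPM per kb (SD, n = 3) in adults and 104 ± 6.97 CPM per kb (SD, n = 3) in P10, and its lowest library, Adult 4 at 79.9 CPM per kb, was above every library of the other genes. Next in adults came Dnmt1 with 27.2 ± 4.40 and 29.7 ± 4.63, Dnmt3a with 22.9 ± 2.89 and 20.4 ± 5.43, and Eed with 18.3 ± 1.41 and 22.6 ± 1.22 CPM per kb (SD, n = 3 each, adults first), while in P10 the mean of Eed was above that of Dnmt3a. Neighbours in this order, Dnmt1 with Dnmt3a and Dnmt3a with Eed, shared part of their range over the 6 libraries. Dnmt3b (11.4 ± 2.55 and 14.2 ± 1.89 CPM per kb, SD, n = 3 each) and Ezh1 (9.43 ± 1.72 and 12.99 ± 2.38 CPM per kb, SD, n = 3 each) were the least open. Their ranges overlapped each other, and the highest Dnmt3b library, P10 1 at 16.2 CPM per kb, was below the lowest Eed library, Adult 5 at 16.7 CPM per kb.

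Likeness to other genes was measured by Pearson r of log2 CPM of the summed sites over the 6 libraries, among 13115 genes with a mean summed count of at least 100. All points share the same libraries, so these values describe likeness only. Eed was most like Zfp52 (r = 0.990), Aldh1a1 and Esf1. Ezh1 was most like Dstn (r = 0.996), Kcnj13 and Ube2d3. Ezh2 was most like Rn45s (r = 0.982), the precursor of ribosomal RNA, followed by Ncoa1 and Unc93b1. Dnmt3a came closest to Abo (r = 0.997), Nr1i2 and Rps15a, Dnmt3b to Psmc3ip (r = 0.994) and Mir339, and Dnmt1 to Akt2 (r = 0.997), Pes1 and Hes3.

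RefSeq promoter windows of 300 bases (250 before the gene start and 50 after, build GRCr8) were matched by symbol for 8 of the 10 genes, giving 13 windows; Dnmt3b and Ezh1 were not matched. Windows of 3 genes are shown because each has an accessible site over its start, called Down for Eed and not called for Ezh2 and Dnmt1. Capitals mark the letters TTTCGCGC, TTTGGCGC or TTTCCCGC (E2F letters), CCAAT, and GGGCGG (GC box), searched on both strands; matches may share bases. Among 33469 promoters, 1.72% held E2F letters, 37.5% CCAAT and 33.1% a GC box. The windows belong to another assembly than the Rn5 sites, and their position within the sites was not tested.
Eed, chr1:153307451-153307750, minus strand: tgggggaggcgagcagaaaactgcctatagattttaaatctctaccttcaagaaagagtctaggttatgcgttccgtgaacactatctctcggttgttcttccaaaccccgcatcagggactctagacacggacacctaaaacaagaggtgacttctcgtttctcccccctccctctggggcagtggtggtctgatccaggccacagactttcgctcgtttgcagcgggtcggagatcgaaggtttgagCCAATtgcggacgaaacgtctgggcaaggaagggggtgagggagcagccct
Ezh2, chr4:77687134-77687433, minus strand: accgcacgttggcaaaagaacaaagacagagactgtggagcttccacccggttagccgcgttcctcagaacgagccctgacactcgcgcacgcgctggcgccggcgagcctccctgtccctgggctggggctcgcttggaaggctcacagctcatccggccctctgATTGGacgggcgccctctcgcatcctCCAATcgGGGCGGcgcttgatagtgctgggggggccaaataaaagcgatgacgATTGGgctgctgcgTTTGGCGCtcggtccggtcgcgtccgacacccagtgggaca
Dnmt1, chr8:27762792-27763091, minus strand: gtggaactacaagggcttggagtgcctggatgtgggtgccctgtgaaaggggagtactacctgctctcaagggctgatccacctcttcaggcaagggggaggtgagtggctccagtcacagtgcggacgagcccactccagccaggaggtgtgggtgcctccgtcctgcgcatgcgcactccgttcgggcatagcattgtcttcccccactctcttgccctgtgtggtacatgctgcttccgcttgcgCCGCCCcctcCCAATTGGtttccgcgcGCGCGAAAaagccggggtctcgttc

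The Eed window held CCAAT once, at bases 250 to 254 counted from its 5′ end, and neither E2F letters nor a GC box. The Ezh2 window held TTTGGCGC at bases 260 to 267, 3 CCAAT matches and a GC box. The Dnmt1 window held TTTCGCGC on the minus strand at bases 276 to 283, a GC box, and a pair of CCAAT matches that share bases. Across the 13 windows, 3 held E2F letters, those of Ezh2, Dnmt1 and Suz12. The CG dinucleotide, which the methyltransferases act on, occurred 15 times in the Eed, 30 times in the Ezh2 and 17 times in the Dnmt1 window, beside a median of 7 over all promoters. Fewer CG were held by 68.0%, 89.7% and 71.0% of all promoters, in the same order. Over the 13 windows the CG count ran from 3 to 39. These matches are a description of the letters and say nothing of binding.

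Partners of these genes were taken from lists of 58 related genes, 51 of them with at least 1 site. Of their 403 sites, 58 were Up (14.4%) and 29 Down (7.20%), beside 12.3% and 6.63% of all ACS. Of their 48 TSS sites 2 were Up and 4 Down, where 2.73% and 7.87% of all TSS sites were. Accessory subunits of PRC2 had 7 Up, all of Aebp2, and 5 Down of 47 sites, PRC1 had 12 Up, 6 of them of Rybp, and 6 Down of 103, and the deubiquitinases and demethylases that oppose Polycomb had 0 Up and 1 Down of 9. Cofactors and readers of DNA methylation had 15 Up and 3 Down of 69 sites, with 13 of the Up sites at Mbd2 alone, and Tet partners with base excision genes 17 Up, 9 of them of Gadd45g, and 12 Down of 135. With total reads, each of these lists held 0 or 1 Up site. The totals also include genes outside these 5 lists, among them Hk1, Ldha, Cdkn2a and Cdkn2b.

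The 10 related sites with the smallest p were all Up, where 7.06% of all ACS were Up and 1.91% Down at an adjusted p under 0.05. All 10 separated the ages, which follows largely from picking them by p. All adult values lay over all P10 values at 13.8% of all ACS. Of the 10 sites, 4 belonged to Mbd2, a reader of methylated DNA, between 103385 and 670463 bp from its start. The first, chr18:65244389-65244946, held 21.2, 14.9 and 21.5 CPM in Adult 4, 5 and 6 and 6.55, 5.85 and 7.24 CPM in P10 1, 2 and 3, a log2 fold change of 1.55 (edgeR adjusted p = 4.11e-05). Phc3, a PRC1 subunit, gave 2 of the 10, among them its TSS site with 16.6 ± 2.99 CPM (SD, n = 3) in adults and 6.94 ± 2.07 CPM (SD, n = 3) in P10 (log2 fold change 1.25, edgeR adjusted p = 0.00105). With total reads, the 10 log2 fold changes were all positive, and those of Rybp and of the first Mbd2 site passed the limits. The others were DISTAL sites of the PRC1 gene Rybp (1.75), the PRC2 accessory gene Aebp2 (1.02), the cell cycle inhibitor Cdkn2b (1.06) and the stress gene Gadd45a (0.90, all log2 fold changes). The TSS sites of Mbd2 (0.30), Rybp (0.24 and 0.14), Cdkn2b (0.09) and Gadd45a (-0.11) were not called, and Aebp2 had none. In the TSS class, a site 754 bp upstream of the PRC1 gene Pcgf1 was also Up (0.67), while the site over the Pcgf1 start was not called (0.00). The starts of the methylation cofactor Uhrf2 (-0.52), the PRC2 cofactor Epop (-0.83), the hexokinase Hk1 (-0.53) and the PRC1 subunit Cbx2 (-0.54) were Down (log2 fold changes). The second and only other site of Hk1, PROXIMAL and 4170 bp upstream, was Up, with 19.3 ± 3.89 CPM (SD, n = 3) in adults and 9.31 ± 2.07 CPM (SD, n = 3) in P10 (log2 fold change 1.05, edgeR adjusted p = 0.00278). Its call held without each library (0.91 to 1.24) and was lost with total reads (0.19), and the summed sites of Hk1 were not called (0.228, edgeR adjusted p = 0.495). A further TSS site of Uhrf2 (0.20) was not called, nor were the 2 sites of Ldha and the 3 of Cdkn2a or their sums (0.20 and 0.17). The called Pcgf1 value was -0.17 with total reads, and its call was lost with column sums and cyclic loess and without Adult 4, Adult 6, P10 2 or P10 3 (0.51 to 0.80 over the libraries left out). Calls were also lost for Epop without Adult 6 (-0.58), for the Hk1 start without Adult 4, Adult 5 or P10 2, and for Cbx2 without any library but P10 3. Over all libraries left out, the Hk1 start ran from -0.64 to -0.36 and Cbx2 from -0.60 to -0.48.

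Marker lists were read beside these values, and their part in the results was not tested. Their counts stand beside 12.3% Up and 6.63% Down of all ACS, and 2.73% Up and 7.87% Down of all TSS sites. The most open gene of a list, here and for beta cell markers above, has the highest sum over all its sites. The order at TSS sites alone can differ. Of 16 proliferation markers, all with a site, 16 TSS sites held 1 Up and 3 Down, summing to 608 ± 39.4 CPM (SD, n = 3) in adults and 617 ± 34.8 CPM (SD, n = 3) in P10. Over all sites, Mcm4 was most open in adults and Mki67 in P10. At the TSS sites in P10, Mcm4 held 117 CPM and Mki67 56.0 CPM. Over all 79 sites of these markers there were 6 Up and 6 Down. TSS sites of 3 cell types were lower in adults without overlap, and sums over all their sites were not. Acinar markers (8 of 10 with a site, Ptf1a most open, Cela1 and Cel without) summed to 4.79, 7.69 and 7.22 CPM in Adult 4, 5 and 6 and to 9.39, 11.8 and 11.0 CPM in P10 1, 2 and 3 over 3 TSS sites, with 1 Down. Duct markers (5 of 6, over all sites Cftr most open in adults and Sox9 in P10, Krt7 without) summed to 25.7, 28.4 and 26.4 CPM against 36.9, 43.1 and 43.9 CPM over 4 TSS sites, with 2 Down, in the same order of libraries. Delta cell markers (3 of 3, Sst most open over all sites) summed to 20.3, 25.4 and 20.8 CPM against 30.4, 38.7 and 35.4 CPM over 4 TSS sites, with 3 Down. Over all sites, the acinar list (3 Up and 7 Down of 57) summed to 360 ± 19.9 CPM (SD, n = 3) in adults and 342 ± 1.53 CPM (SD, n = 3) in P10. Ptf1a, not called as a sum, held 40 of these sites and all 3 Up (281 and 239 CPM). The sums of the other 7 acinar genes each had a negative log2 fold change, and 3 were called lower. Over all its sites the delta list (1 Up and 5 Down of 13) summed to 179 ± 19.9 CPM (SD, n = 3) and 185 ± 7.18 CPM (SD, n = 3). The summed sites of Hhex (-0.527) and Rbp4 (-0.651) were called lower in adults, and those of Sst (0.178) were not called. The duct list (4 Up and 5 Down of 43) was higher in adults without overlap, with 313, 277 and 304 CPM in Adult 4, 5 and 6 and 251, 247 and 267 CPM in P10 1, 2 and 3, with most of the difference at Cftr (114 and 74.2 CPM).

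Alpha cell markers, 5 of 5 with a site, held 22 Up (21.4%, beside 12.3% of all ACS) and 3 Down (2.91%, beside 6.63%) of 103 sites. They had 0 of 5 TSS calls by edgeR, voom or DESeq2, with Irx2 most open. Their sites summed to 987, 858 and 968 CPM in Adult 4, 5 and 6 and to 768, 696 and 790 CPM in P10 1, 2 and 3, higher in adults without overlap, although Gcg was lower (-0.231, not called). Endothelial markers, 6 of 6, had 10 Up and 3 Down of 75 sites, with Cdh5 most open. Their sum was higher in adults (530 ± 47.3 CPM, SD, n = 3) than in P10 (460 ± 6.53 CPM, SD, n = 3) through Cdh5 (0.528) and Kdr (0.333), while Pecam1 (-0.123), Tek (-0.0277), Tie1 (-0.378) and Vwf (-0.127) had negative log2 fold changes. Leukocyte markers, 5 of 6 with Cd68 lacking a site, had 1 Up and 1 Down of 12, none of the TSS class, with Laptm5 most open in adults (15.02 CPM, 9.24 CPM in P10) and Ptprc in P10 (16.7 CPM, 13.1 CPM in adults). Mesenchymal markers, 6 of 6, had 7 Up and 5 Down of 58, with Col1a2 most open. They summed to 407 ± 25.1 CPM (SD, n = 3) in adults and 368.5 ± 10.1 CPM (SD, n = 3) in P10, and no gene of this list was called. Log2 fold changes were positive for Col1a2 (0.213) and Dcn (0.202) and negative for Col1a1 (-0.136), Col3a1 (-0.0489), Pdgfrb (-0.00279) and Lum (-0.845). Over single genes, where 8.71% of all genes were called higher in adults and 4.64% lower, the summed sites gave 1 and 2 calls for proliferation, 0 and 3 for acinar, 1 and 0 for duct, 0 and 2 for delta, 2 and 0 for alpha, 2 and 0 for endothelial, 1 and 0 for leukocyte and 0 and 0 for mesenchymal markers. With total reads each marker list held 0 to 3 Up sites, and Down sites numbered 60 of 97 for beta, 50 of 103 for alpha, 12 of 13 for delta, 37 of 57 for acinar, 25 of 43 for duct, 41 of 75 for endothelial, 7 of 12 for leukocyte, 36 of 58 for mesenchymal and 55 of 79 for proliferation markers, beside 60.7% of all ACS.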

How the data were processed

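Accessibility was measured by ATAC-seq in 3 adult and 3 P10 islet libraries. The authors aligned reads to Rn5 with BWA 0.7.13, dropped mitochondrial reads and those with a mapping quality under 30 (SAMtools 1.3), called peaks with MACS2 2.1.1 on the joined libraries of each age, and deposited raw counts of integrations per site and library. Their text does not say whether duplicates were removed, and intervals cover replicate and counting error of the counts as deposited. The table also holds the authors' own edgeR comparison of the ages (log2 fold change, abundance, F, p and FDR), which was not used. Classes, nearest genes and distances are those of the table.

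Repeated listings were counted once and no filter was applied. Tests used edgeR 4.0.16 in R 4.3.3 (TMM, quasi-likelihood F test, age as the term) and were checked on simulated data. Sums per gene kept the scaling of the sites. Alternatives were RLE size factors, column sums, total reads, cyclic loess with limma-trend and voom (limma 3.58.1), DESeq2 1.42.0, a low-count filter, an adjusted p under 0.05, autosomes only, all listed entries, and each library left out. Counting the Dnmt1 sites in, and the alternatives for related genes and for sites outside the naming rule, were added after the data were seen. The genes and lists were chosen with earlier results of these data known. Named in full are all TSS-class sites, all called sites and the site with the highest mean count of each gene; of related genes, those with a called TSS site and the 10 called sites with the smallest p, and beside them the second site of Hk1, chosen with its value known; and 3 most alike genes for each gene. The third for Dnmt3b and the counts of 1 list of related genes are not reported here. Python 3.11.15 with matplotlib 3.10.9 drew the plots.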

Additional observations from a re-analysis of the deposited data

How the results depend on the processing

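The 2 Up and 4 Down sites of the 10 genes kept these numbers under DESeq2, the low-count filter, autosomes only, every listed entry, and with the Dnmt1 sites added. Leaving out 1 library gave 0 to 4 Up and 1 to 5 Down sites. Over all ACS this gave 7973 to 13232 Up and 3285 to 7215 Down, and for gene sums 394 to 2065 higher and 195 to 938 lower. Total reads gave 0 Up and 34 Down sites of the 10 genes, 1062 Up and 61663 Down of all ACS, and 11 higher and 12745 lower gene sums. An adjusted p under 0.05 gave 0 and 1, 7177 and 1945, and 421 and 124. Column sums gave 10732 Down ACS and 2182 lower gene sums.

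Signs of log2 fold changes turned with total reads at Dnmt3a sites 14090 (-0.25) and 16547 bp upstream (-0.38) and 2155 (-0.14) and 25841 bp inside (-0.42), for the summed Dnmt3a sites (-0.71), at the Dnmt1 site 7330 bp upstream (-0.54), at Ezh2 sites 39361 (-0.37) and 66887 bp upstream (-0.56), and at Pcgf1 (-0.17). Others turned without 1 library, given as ranges over the libraries left out, and not all of them are listed. Among them were the Ezh2 start (-0.08 to 0.07) and its sites 54080 (-0.19 to 0.11), 59487 (-0.21 to 0.07), 55499 (-0.63 to 0.02) and 66887 bp upstream (-0.24 to 0.48). The summed Ezh2 sites (-0.18 to 0.16), the Ezh1 site 16398 bp upstream (-0.33 to 0.37) and the summed Dnmt1 sites (-0.25 to 0.00) turned as well. Uncalled sites of Dnmt3a also did, such as that 28729 bp upstream (-0.22 to 0.40). The cause was not tested. No paired analysis was possible because the groups share no replicate numbers. Each age has 3 libraries with a median of 36 to 96 counts per site, and how small a difference could be called was not tested.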
